A study of Mus musculus with 6 samples.

Results

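The genes described here are 7 ligands and 3 receptors of the bone morphogenetic protein (BMP) pathway, taken by name: *Bmp2*, *Bmp4*, *Bmp5*, *Bmp6*, *Bmp7*, *Gdf5*, *Gdf10*, *Bmpr1a*, *Bmpr1b* and *Bmpr2*. All 10 were found among the 38924 genes of the count tables. RNA was sequenced from cartilage of the anterior nasal septum, which divides the nasal cavities, cut by laser from frozen head sections of C57BL/6 mouse embryos at embryonic day 14.5. The mutant group (Apert, 3 embryos) carried the S252W point mutation, 1 of those known in Apert syndrome, on 1 copy of *Fgfr2* together with EIIA-Cre, a recombinase transgene whose promoter is active in the early embryo, so that the mutation is not restricted to cartilage. The comparison group (WT, 3 embryos) was labelled wild type, with no Cre named. Each library came from 15 ng of RNA of 1 embryo that was amplified before sequencing as read pairs of 100 bp.

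BMPs and their relatives the growth and differentiation factors (GDFs) are secreted dimers of the transforming growth factor beta superfamily. A ligand brings together type I and type II serine/threonine kinase receptors at the cell surface, and the type I receptor then phosphorylates SMAD1, SMAD5 and SMAD9, which enter the nucleus with SMAD4. In the mouse embryo this signal starts and sustains chondrogenesis, and in growth plates fibroblast growth factor receptors and BMPs are known to act against each other on chondrocyte proliferation and maturation. The comparison of genotypes asks whether RNA of these ligands and receptors differs in cartilage with the mutant receptor.

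Library totals were 6760510 to 10527915 counts in Apert and 8631181 to 10834744 counts in WT. Mitochondrial genes took 34.3% to 40.4% of counts in Apert and 28.8% to 30.2% in WT, without overlap, and 18245 to 18529 genes were detected in Apert against 18687 to 18942 in WT. *Col2a1*, the main cartilage collagen, was at 16340 to 18190 CPM (counts divided by library size after trimmed-mean-of-M-values scaling) in Apert and 16650 to 24540 CPM in WT, and all 8 genes of the cartilage marker list passed the filter on low counts. None of the 8 was called, their median log2 fold change was -0.22 with 3 positive and 5 negative, and 2 had an unadjusted p below 0.05, both lower in Apert. *Sox9*, which encodes the main transcription factor of chondrocytes, was at 338.0 to 618 CPM in Apert and 638 to 845 CPM in WT, without overlap (log2 fold change -0.67, edgeR adjusted p = 0.125). *Acan*, the cartilage proteoglycan gene, was at 700.3 to 937 CPM in Apert and 904 to 1582 CPM in WT (-0.48, adjusted p = 0.322), while *Col11a1* (0.19) and *Hapln1* (0.17), named after their values were seen, had positive log2 fold changes. *Comp*, a matrix protein of mature cartilage, was near 0 at 0.953 to 3.57 CPM in Apert and 0.867 to 5.30 CPM in WT. Summed levels of osteoblast markers (0.0991 to 1.36 CPM in Apert, 0.0867 to 0.433 CPM in WT), epithelial markers (0.496 to 2.99 and 1.08 to 1.64 CPM) and muscle markers (0.198 to 0.972 and 0 to 0.289 CPM) were near 0. Endothelial markers summed to 1.59 to 4.37 CPM in Apert and 1.04 to 3.14 CPM in WT, neuronal markers to 6.35 to 12.4 and 4.42 to 12.9 CPM, and leukocyte markers to 4.36 to 13.3 and 4.33 to 8.58 CPM, with none called. *Fgfr2* was at 466 to 583 CPM in Apert and 582 to 700 CPM in WT, and since a point mutation leaves its exons in place these values do not check the genotype labels. The perichondrium and fibrous list was not near 0. Its 10 genes summed to 3070 to 3320 CPM in Apert and 2210 to 2490 CPM in WT, without overlap. Of them 2 were called higher in Apert and none lower, where 0.398% of all tested genes were called higher. Their median log2 fold change was 0.60, with 8 positive and 2 negative. An unadjusted edgeR p below 0.05 was reached by 7, all higher in Apert, beside 6.35% of all tested genes. The 7 glial markers summed to 276 to 328 CPM in Apert and 364 to 433 CPM in WT, also without overlap, with *Foxd3* at 0 counts and none called. The part of these differences in the results below was not tested, and in bulk RNA fewer cells of a type and less RNA per cell cannot be told apart.

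No BMP ligand or receptor differed between the genotypes past the threshold. Of the 10 genes, 9 passed the filter on low counts and 0 of these had an adjusted p of at most 0.05 (edgeR quasi-likelihood test, Benjamini-Hochberg over 13333 genes), where 0.450% of all tested genes did (0.398% higher and 0.0525% lower in Apert). DESeq2 and limma-voom also called 0, though DESeq2 gave no adjusted p for *Bmp6*. At an unadjusted p below 0.05 edgeR gave 4 of the 9, *Bmp4*, *Bmp5* and *Bmpr2* with higher and *Bmpr1b* with lower mean CPM in Apert, where 11.4% of all tested genes reached that level (6.35% higher, 5.01% lower). The 3 libraries of each genotype did not overlap for 4 of the 9, higher in Apert for *Bmp5* and *Bmpr2* and lower for *Bmp6* and *Bmpr1b*, against 16.6% of all tested genes (8.92% higher, 7.70% lower). The median log2 fold change of the 9 was 0.21, beside 0.01 over all tested genes. The members were chosen with earlier results of these data known, so setting them beside all tested genes cannot show an excess.

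**Figure D1:**
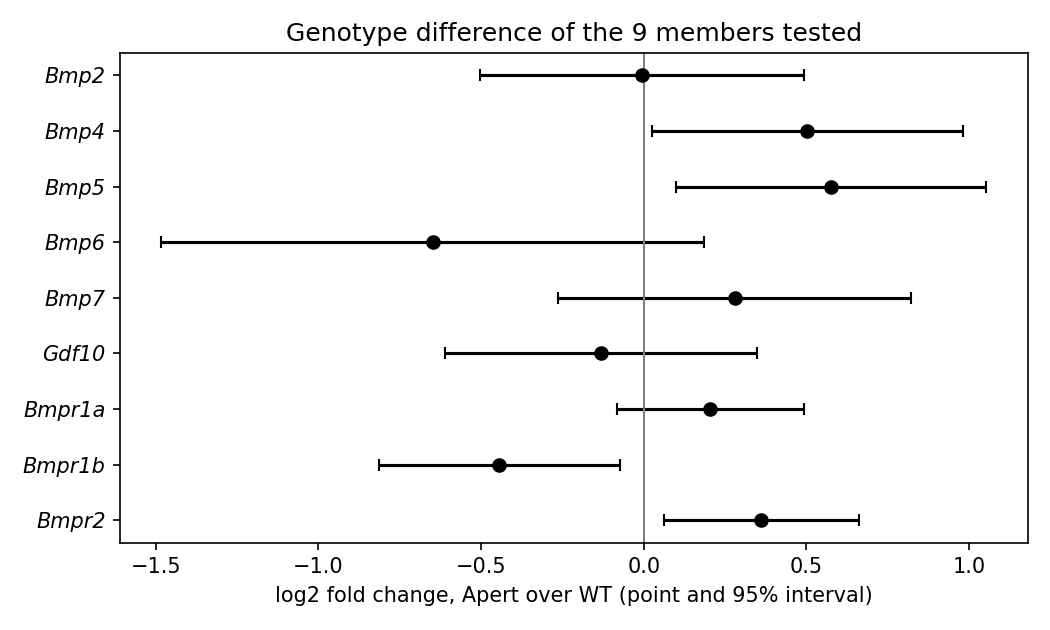
Log2 fold change of Apert over WT for the 9 ligand and receptor genes that passed the filter, as points with 95% intervals from the edgeR quasi-likelihood fit; the vertical line marks no difference. The intervals of *Bmp4*, *Bmp5* and *Bmpr2* lie to the right of 0 and that of *Bmpr1b* to the left, and none of the 9 passed the threshold after adjustment over all genes.

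Levels were compared between genes as CPM per kilobase of the gene model, averaged within each genotype. The receptors *Bmpr2* and *Bmpr1a* stood highest in both genotypes, with 98.2% and 97.4% of tested genes below them in the mean of the 6 libraries. *Bmpr2* was at 72.9 to 84.5 CPM per kilobase in Apert and 53.1 to 70.5 in WT, and *Bmpr1a* at 51.9 to 67.9 in Apert and 50.5 to 55.1 in WT. These 2 genes did not overlap in Apert but did in WT, where *Bmpr2* was still the higher one in each of the 3 libraries. The *Bmpr2* gene model used for counting covers 3555 bases, against 17983 exon bases in GENCODE M21. *Bmp4* followed as the ligand with the highest mean, at 13.6 to 22.3 CPM per kilobase in Apert and 9.90 to 14.9 in WT. Below it *Bmp7*, *Bmp5*, *Gdf10* and *Bmpr1b* in Apert, and *Bmpr1b*, *Gdf10* and *Bmp7* in WT, each overlapped the gene before it in the order, and *Bmp5* overlapped *Bmp2* in WT. Over the 2147 bases that *Bmp5* does not share with another gene its level was 17.2 ± 2.11 CPM per kilobase in Apert and 11.6 ± 3.46 in WT (SD, n = 3 each), close to that of *Bmp4*, in place of 9.19 ± 1.13 and 6.16 ± 1.85, so its place among the ligands and its share of them depend on the length used. *Bmp6* was lower than all of these in every library, at 1.24 to 1.75 CPM per kilobase in Apert and 1.91 to 2.56 in WT, and *Gdf5* was the lowest.

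**Figure D2:**
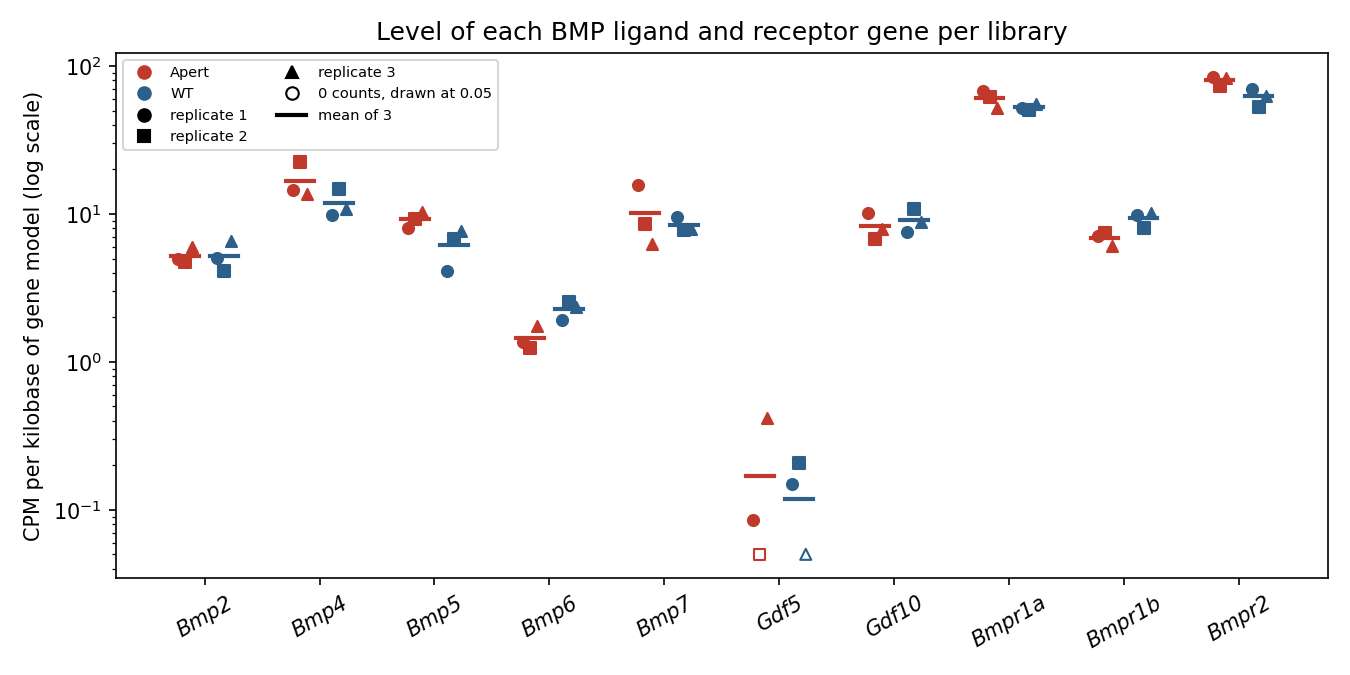
Level of each of the 10 genes in each library, as CPM per kilobase of gene model on a log axis, with Apert in red left of WT in blue, 1 marker shape per replicate number and a bar at the mean of 3 libraries. *Bmpr2* and *Bmpr1a* lie above 50 in all 6 libraries, most ligands and *Bmpr1b* lie between 4 and 23, and *Gdf5* is below 0.42; libraries with 0 counts are drawn as open symbols at 0.05.

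Among the ligands, BMP2 and BMP4 form a closely related pair, and both are used in the mouse embryo from the first steps of cartilage formation. *Bmp4* (ENSMUSG00000021835; mm10 chr14:46383520-46390669, minus strand) was at 32.4, 49.7 and 30.1 CPM in Apert replicates 1 to 3 and at 22.01, 33.1 and 24.1 CPM in WT replicates 1 to 3. Apert replicate 2 was the highest library, and the other Apert libraries lay below the highest WT library. The fold of Apert over WT was 1.42 (95% interval 1.02 to 1.97; log2 fold change 0.50, standard error 0.23) and did not pass (edgeR adjusted p = 0.417). Without Apert replicate 2 the log2 fold change was 0.24 (adjusted p = 0.801).

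*Bmp2* was at 17.6, 16.7 and 21.4 CPM in Apert replicates 1 to 3 and at 18.0, 14.6 and 23.3 CPM in WT replicates 1 to 3. All 3 Apert libraries lay within the WT range. The log2 fold change was -0.01 (standard error 0.24, edgeR adjusted p = 0.996), with an interval of the fold from 0.705 to 1.41. A change of up to about this size in either direction is therefore within the error of 3 libraries per genotype.

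BMP5, BMP6 and BMP7 form another subgroup of ligands. *Bmp5* (ENSMUSG00000032179) is at chr9:75775364-75900310, plus strand, and its loss gives the short-ear mouse, whose ear and rib cartilages are misshapen. *Bmp5* was at 32.4, 37.0 and 41.5 CPM in Apert replicates 1 to 3 and at 16.5, 27.2 and 30.7 CPM in WT replicates 1 to 3, so that each Apert library lay above each WT library, the closest pair being 32.4 and 30.7 CPM. It had the largest positive log2 fold change of the 9 genes, 0.58 (standard error 0.23; fold 1.49, 95% interval 1.07 to 2.08), and did not pass (edgeR adjusted p = 0.336). When a smooth curve of each library's deviation on GC content was removed, the log2 fold change was 0.36 (adjusted p = 0.777), and without WT replicate 1 it was 0.35 (adjusted p = 0.726). Of the 4025 bases of its gene model 1878 also belong to *Gm26903* on the opposite strand, and unstranded counting gives fragments there to neither gene, so part of its count is uncertain.

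*Bmp6*, the least abundant ligand that passed the filter, encodes a BMP known in the adult liver as the inducer of hepcidin and in growth plates from maturing chondrocytes. It had 33, 22 and 26 counts in Apert replicates 1 to 3 (3.27, 2.99 and 4.21 CPM) and 53, 64 and 52 counts in WT replicates 1 to 3 (4.59, 6.17 and 5.63 CPM). The highest Apert library lay just below the lowest WT library. The fold was 0.638 (95% interval 0.358 to 1.14; log2 fold change -0.65, standard error 0.40) and did not pass (edgeR adjusted p = 0.565). The log2 fold change was -0.36 with the correction for GC content (adjusted p = 0.900).

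*Bmp7* encodes a ligand that the mouse needs for kidney and eye development. It was at 63.0, 34.3 and 25.1 CPM in Apert replicates 1 to 3 and at 38.3, 31.2 and 31.9 CPM in WT replicates 1 to 3. The Apert libraries lay on both sides of WT and were the most scattered of the ligands, with a mean of 40.8 ± 19.7 CPM beside 33.8 ± 3.90 CPM in WT (SD, n = 3 each). The log2 fold change of 0.28 (standard error 0.26, edgeR adjusted p = 0.729) rested on Apert replicate 1, without which it was -0.22 (adjusted p = 0.703).

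The GDF members are *Gdf10*, a relative of *Bmp3*, and *Gdf5*, which marks joint-forming regions and is needed for joints of the mouse limb. *Gdf10* was at 25.3, 16.9 and 19.9 CPM in Apert replicates 1 to 3 and at 18.8, 27.2 and 22.3 CPM in WT replicates 1 to 3, with the genotypes overlapping. Its log2 fold change was -0.13 (standard error 0.23; fold 0.913, 95% interval 0.654 to 1.27; edgeR adjusted p = 0.876). *Gdf5* had 2, 0 and 6 counts in Apert replicates 1 to 3 and 4, 5 and 0 counts in WT replicates 1 to 3. It was not tested, and at this depth the libraries with 0 counts allow up to 0.408 CPM in Apert replicate 2 and 0.325 CPM in WT replicate 3 (3 counts each, counting error only).

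Taken as shares of the summed level per kilobase of the 7 ligands, *Bmp4* held 26.6%, 42.3% and 29.3% in Apert replicates 1 to 3 and 25.9%, 31.6% and 24.5% in WT replicates 1 to 3. *Bmp7* held 13.5% to 28.6% in Apert and 16.5% to 25.0% in WT, and *Bmp5* 14.7% to 22.3% in Apert and 10.7% to 17.3% in WT, all overlapping. The shares of *Gdf10* (12.8% to 18.4% in Apert, 19.7% to 23.0% in WT) and *Bmp6* (2.36% to 3.78% in Apert, 5.0% to 5.44% in WT) did not overlap and were lower in Apert. The summed ligand level was 54.8, 52.8 and 46.2 CPM per kilobase in Apert and 38.2, 47.1 and 44.2 in WT, so the totals overlap. Shares within a library do not depend on how libraries are scaled, but a share falls when another ligand's level is higher.

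**Figure D3:**
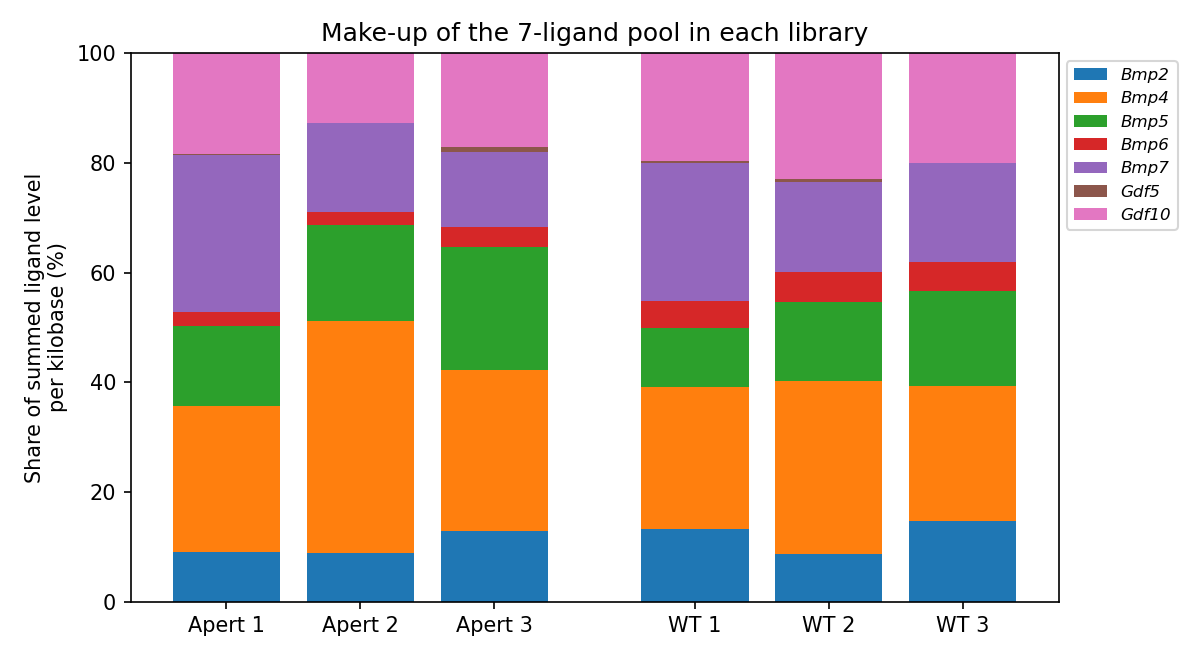
Share of each of the 7 ligand genes in the summed ligand level per kilobase, in percent, 1 stacked bar per library with the 3 Apert libraries on the left and the 3 WT libraries on the right. *Bmp4*, *Bmp7*, *Gdf10* and *Bmp5* fill most of every bar, and the *Bmp6* segment is 2.36% to 3.78% in Apert and 5.0% to 5.44% in WT.

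BMPR2 is a type II receptor, whose kinase activates the type I receptors, and *Bmpr2* (ENSMUSG00000067336) is at chr1:59764279-59870549, plus strand. *Bmpr2* was at 300.4, 259 and 294 CPM in Apert replicates 1 to 3 and at 250.6, 189 and 225 CPM in WT replicates 1 to 3. All Apert libraries lay above all WT libraries, the lowest Apert library by a small margin. The fold was 1.29 (95% interval 1.05 to 1.58; log2 fold change 0.36, standard error 0.14) and did not pass (edgeR adjusted p = 0.335). The log2 fold change was 0.16 after GC correction (adjusted p = 0.870) and 0.20 under scaling by library totals only (adjusted p = 0.590).

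BMPR1A and BMPR1B are type I receptors with overlapping functions in mouse chondrogenesis, and BMPR1B is the preferred type I receptor of GDF5. *Bmpr1a* (ENSMUSG00000021796) is at chr14:34410734-34503341 and *Bmpr1b* (ENSMUSG00000052430) at chr3:141837136-142169425, both on the minus strand. Of the 6351 bases of the *Bmpr1a* model 290 are shared with *Gm17110* on the opposite strand, which had at most 6 counts in any library. *Bmpr1a* was at 431, 393 and 329.7 CPM in Apert replicates 1 to 3 and at 330.6, 321 and 349.7 CPM in WT replicates 1 to 3. The groups overlapped, since Apert replicate 3 lay within the WT range. The fold was 1.15 (95% interval 0.945 to 1.41; log2 fold change 0.21, standard error 0.14; edgeR adjusted p = 0.610), and the log2 fold change was 0.01 with the correction for GC content.

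*Bmpr1b* was at 42.1, 44.4 and 36.0 CPM in Apert replicates 1 to 3 and at 58.7, 47.7 and 60.5 CPM in WT replicates 1 to 3. Every Apert library was below every WT library, with Apert replicate 2 and WT replicate 2 the closest. The fold was 0.735 (95% interval 0.568 to 0.950; log2 fold change -0.44, standard error 0.18) and did not pass (edgeR adjusted p = 0.340). *Bmpr1b* was the only receptor of the 3 with a negative log2 fold change in edgeR, DESeq2 and limma-voom. Its log2 fold change was -0.62 with the correction for GC content (adjusted p = 0.259) and lay between -0.55 and -0.37 when single libraries were left out.

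The relation between the type I receptors was then read within each library, a measure chosen after the values of both genes were seen and given without a test. The ratio of *Bmpr1b* to *Bmpr1a* per kilobase was 0.104, 0.120 and 0.116 in Apert replicates 1 to 3 and 0.189, 0.158 and 0.184 in WT replicates 1 to 3. The mean ratio was 0.114 ± 0.00838 in Apert and 0.177 ± 0.0165 in WT (SD, n = 3 each), and the groups lay apart. The log2 fold change of *Bmpr1b* less that of *Bmpr1a* was -0.65. It lay between -0.66 and -0.63 under the other scalings, filters, tools and corrections. A library's scaling factor acts on both genes alike, so the scalings and filters could hardly move this difference. When single libraries were left out it lay between -0.72 and -0.58. The longest transcripts of both genes have similar GC content, 41.3% for *Bmpr1a* and 42.2% for *Bmpr1b*. The GC correction could therefore move the difference little as well. *Bmpr1b* made up 4.43%, 5.23% and 4.29% of the summed receptor level per kilobase in Apert and 7.43%, 7.17% and 7.90% in WT, while the shares of *Bmpr1a* (36.9% to 43.5% in Apert, 39.3% to 45.2% in WT) and *Bmpr2* (51.2% to 58.8% in Apert, 47.6% to 53.2% in WT) overlapped. The summed receptor level was 159.4, 142.2 and 140.7 CPM per kilobase in Apert and 132.4, 111.7 and 128.4 in WT, without overlap. A share falls when another receptor's level is higher, so the *Bmpr1b* share also reflects this larger sum.

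**Figure D4:**
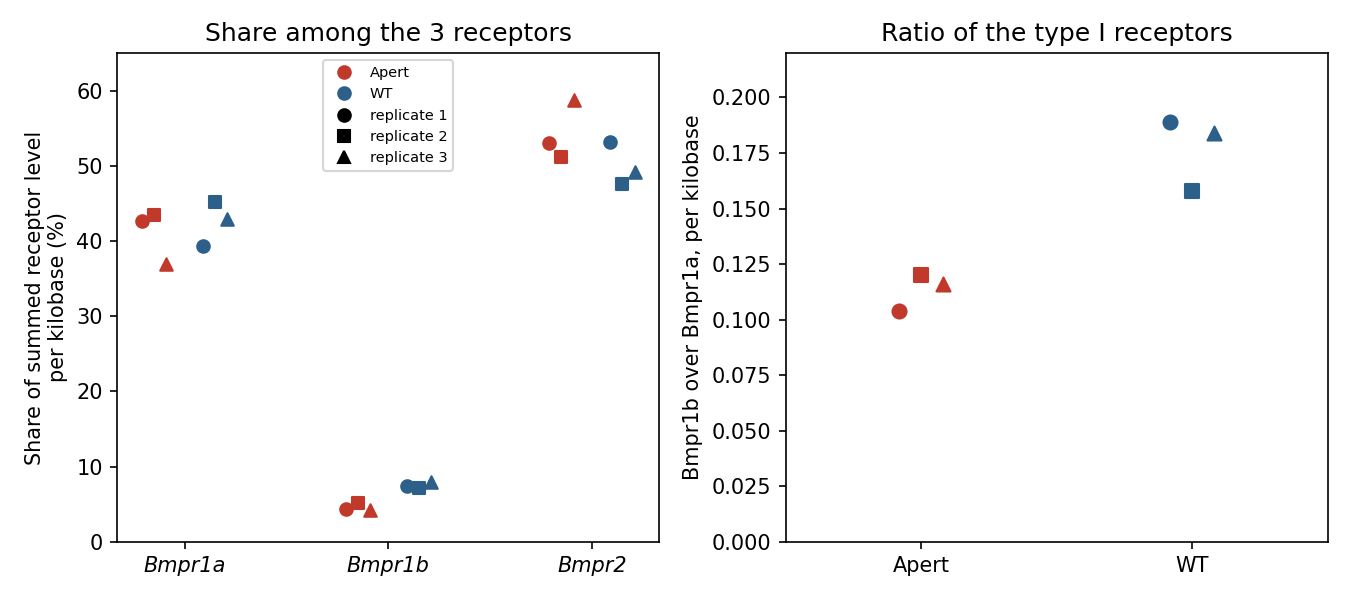
Left, share of each receptor gene in the summed level per kilobase of the 3 receptors, in percent; right, ratio of *Bmpr1b* to *Bmpr1a* per kilobase; each point is 1 library, with Apert in red left of WT in blue and 1 marker shape per replicate number. The 3 Apert ratios lie between 0.104 and 0.120, below the 3 WT ratios between 0.158 and 0.189, while the shares of *Bmpr1a* and *Bmpr2* overlap.

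The annotated start regions of these 2 receptor genes are shown as reference sequence, for the pair whose levels were set side by side above after their values were seen; no difference between them was tested from these windows. RefSeq windows (GRCm38.p6) of 300 bases, 250 before and 50 after an annotated start, were matched for 7 of the 10 genes, all but *Bmp2*, *Bmp7* and *Gdf5*. The *Bmpr1a* window is chr14:34502497-34502796, and that of *Bmpr1b*, the most upstream of 3 RefSeq windows, is chr3:141982215-141982514. Both are on the minus strand and are written 5′ to 3′, with each CG dinucleotide in capitals.
Bmpr1a: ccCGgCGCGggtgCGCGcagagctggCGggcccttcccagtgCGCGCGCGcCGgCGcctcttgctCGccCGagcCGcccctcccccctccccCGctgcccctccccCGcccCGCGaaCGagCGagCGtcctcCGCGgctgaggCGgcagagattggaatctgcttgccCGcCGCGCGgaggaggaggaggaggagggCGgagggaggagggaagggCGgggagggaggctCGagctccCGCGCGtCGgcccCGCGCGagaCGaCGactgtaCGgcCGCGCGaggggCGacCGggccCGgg
Bmpr1b: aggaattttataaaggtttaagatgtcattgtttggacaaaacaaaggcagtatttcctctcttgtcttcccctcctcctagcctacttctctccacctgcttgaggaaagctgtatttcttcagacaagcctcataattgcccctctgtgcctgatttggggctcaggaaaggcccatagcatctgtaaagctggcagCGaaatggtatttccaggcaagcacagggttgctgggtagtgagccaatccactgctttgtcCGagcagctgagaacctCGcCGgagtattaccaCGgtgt

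The *Bmpr1a* window holds 48 CG dinucleotides, more than 98.8% of 32851 RefSeq windows of the same length, and the *Bmpr1b* window holds 5, where the median of all windows is 7. The other *Bmpr1b* windows hold 6 each. Among the other genes the count was 42 for *Gdf10*, 27 for *Bmp6*, 23 for *Bmpr2*, 12 for *Bmp4* and 4 for *Bmp5*. The palindromic GC-rich element GGCGCC, a sequence bound by BMP-activated SMADs, occurred once each in the windows of *Bmpr1a*, *Bmpr2* and *Gdf10* and in 11.9% of all windows. The element itself holds a CG, and these windows hold more CG than 98.8%, 78.5% and 97% of all windows. All windows are therefore not a like background for them. The ETS factor motif CCGGAAGT, searched on both strands, was in none of the 9 windows of the 7 genes and in 3.89% of all windows. Letters in a window do not show that a factor binds there, and the counts do not tell which start was used. The *Bmpr1b* gene model of the count tables extends on the minus strand to 142169425, upstream of all 3 windows.

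The rest of the pathway was described from 6 lists with 73 genes, of which 71 were found, 47 passed the filter and 0 were called in edgeR in either direction. At an unadjusted p below 0.05 there were 8, 2 higher and 6 lower in Apert, where 11.4% of all 13333 tested genes were below it, 6.35% higher and 5.01% lower. Genes whose groups did not overlap numbered 2 higher and 3 lower in Apert, beside 16.6% of all tested genes, 8.92% higher and 7.70% lower. DESeq2 called 1, *Rgmb*, and limma-voom 0. DESeq2 gave no adjusted p for *Bmp3*, *Inhba*, *Acvr2b*, *Smad6*, *Chrd*, *Grem1*, *Fst*, *Sostdc1*, *Nbl1*, *Kcp*, *Id1* and *Msx1*, so its call covers fewer genes. The median log2 fold change of the 47 was 0.00, with 23 positive and 24 negative. These lists were also chosen with earlier results of these data known, so the background shares are no test of them.

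Among other receptors and co-receptors (8 tested), the lowest p values belonged to *Rgmb* and *Rgma*, which encode repulsive guidance molecules that act as BMP co-receptors. *Rgmb* was at 4.07, 4.22 and 3.73 CPM in Apert replicates 1 to 3 and at 7.02, 11.5 and 9.31 CPM in WT replicates 1 to 3, without overlap (log2 fold change -1.20, standard error 0.34; edgeR adjusted p = 0.149, DESeq2 adjusted p = 0.0493). *Rgma* was at 23.5, 19.7 and 16.7 CPM in Apert and 36.3, 39.6 and 25.1 CPM in WT (log2 fold change -0.75, adjusted p = 0.169). Both genes were lower in each Apert library than in each WT library and did not pass the edgeR threshold. *Acvr2a*, a further type II receptor gene and the most abundant of this list, was at 69.9 ± 14.8 CPM in Apert and 52.8 ± 8.50 CPM in WT (SD, n = 3 each; log2 fold change 0.41, adjusted p = 0.426). Over all alternatives the edgeR, DESeq2 and limma-voom adjusted p ran from 0.0493 to 0.475 for *Rgmb* and from 0.0516 to 0.734 for *Rgma*.

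The SMAD transducers and SMURF ubiquitin ligases (8 tested) had log2 fold changes of -0.21 to 0.06, with 1 positive and 7 negative and a median of -0.10. The value of *Smad9*, a SMAD that carries the BMP signal, rests on 1 library: it was at 32.9, 12.4 and 7.29 CPM in Apert replicates 1 to 3 and at 18.1, 19.6 and 21.8 CPM in WT, with a log2 fold change of -0.15 (edgeR adjusted p = 0.918) in all libraries and -1.03 (adjusted p = 0.0704) without Apert replicate 1. *Smad9* is named here after its values were seen. *Smad5*, the most abundant of them, was at 236 ± 35.6 CPM in Apert and 236 ± 5.07 CPM in WT (SD, n = 3 each; log2 fold change -0.00). The inhibitory SMAD gene *Smad7* (-0.21) and *Smurf1* (-0.17) had the smallest p of the list and adjusted p of 0.880 and 0.820 (edgeR). Genes that respond to BMP in many tissues (8 tested) split evenly in the fit of all libraries, 4 positive and 4 negative. The homeobox gene *Msx1*, at 6.64, 5.72 and 4.86 CPM in Apert and 2.77, 4.63 and 2.81 CPM in WT, had the smallest p of these (log2 fold change 0.76, adjusted p = 0.504), followed by the transcription factor gene *Hey1* (-0.69, adjusted p = 0.588). *Runx2*, the osteoblast and hypertrophy regulator and the most abundant, was at 85.3 ± 10.95 CPM in Apert and 84.7 ± 1.69 CPM in WT (SD, n = 3 each). The even split of the response genes depended on single libraries and moved in both directions. Without Apert replicate 1 the log2 fold changes of *Id1* (-0.02), *Id2* (-0.22), *Id3* (-0.56), *Id4* (-0.13), *Atoh8* (-1.26) and *Hey1* (-0.995) were negative. Those of *Msx1* (0.60), *Runx2* (0.07) and *Dlx5* (0.32, below the filter in the main fit) were positive. Without WT replicate 1 the log2 fold changes of *Id1* (0.66), *Id2* (0.14), *Id3* (0.11), *Id4* (0.05), *Msx1* (0.63) and *Runx2* (0.01) were positive. Those of *Atoh8* (-0.11), *Hey1* (-0.33) and *Dlx5* (-0.42) were negative there. No pathway gene was called in either fit.

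Secreted antagonists (14 tested, 9 positive and 5 negative) included *Chrdl1*, which encodes a chordin-like protein that binds BMPs. It was at 37.1, 28.6 and 31.8 CPM in Apert and 49.5, 42.1 and 47.3 CPM in WT, without overlap (log2 fold change -0.51, standard error 0.18; edgeR adjusted p = 0.282). *Bmper*, another BMP-binding protein gene, was at 89.8 ± 20.2 CPM in Apert and 129 ± 44.7 CPM in WT (SD, n = 3 each; log2 fold change -0.52, adjusted p = 0.371). *Fstl1*, a follistatin-like gene and the most abundant, had a log2 fold change of -0.13.

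Of the proteases that cut BMP precursors or antagonists (5 tested), *Pcsk5*, a proprotein convertase gene, was at 92.2, 104 and 83.5 CPM in Apert and 68.0, 60.3 and 70.6 CPM in WT, without overlap. Its log2 fold change was 0.49 (standard error 0.16, edgeR adjusted p = 0.204). *Bmp1*, which in spite of its name encodes a metalloprotease that cleaves chordin and procollagens, had a log2 fold change of -0.57 (adjusted p = 0.376). Only 4 of 17 other ligand genes that were found passed the filter, and *Gdf11* (18.5 ± 2.96 CPM in Apert, 21.3 ± 6.64 CPM in WT; SD, n = 3 each) and *Gdf7* had the smallest p of these (edgeR adjusted p = 0.811 and 0.727).

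**Figure D5:**
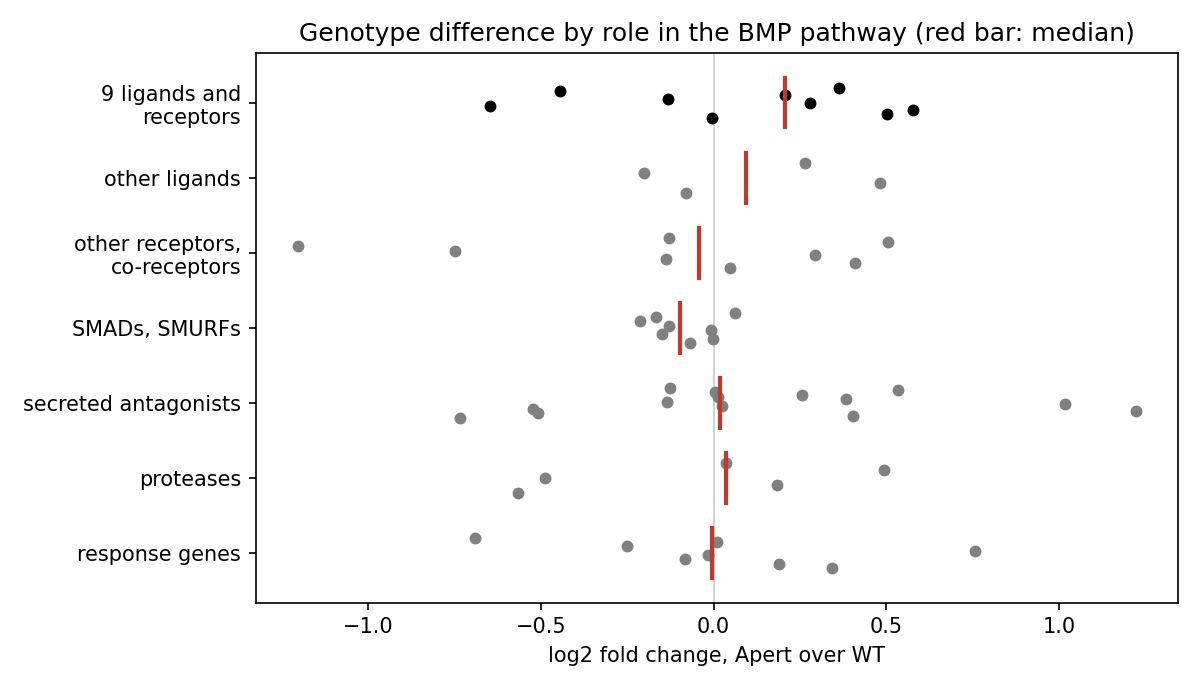
Log2 fold change of Apert over WT for the 9 ligand and receptor genes (black) and the 47 tested genes of 6 other pathway lists (grey), 1 point per gene, with a red bar at each median. Medians lie between -0.10 and 0.21, and the lowest point is *Rgmb* at -1.20; none of the genes passed the edgeR threshold.

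For each of the 9 genes, the pathway gene with the most similar profile was found by the root mean square difference of centred log2(CPM + 0.5) over the 6 libraries, among 55 other tested genes. The smallest difference was that of *Smad5* from *Bmpr1a* (0.125), beside a deviation of *Bmpr1a* itself of 0.154. *Tgfbr3* was nearest to *Gdf10* (0.133), *Id4* to *Bmp2* (0.150) and *Chrdl1* to *Bmpr1b* (0.161). *Pcsk5* was nearest to *Bmpr2* (0.179), *Id3* to *Bmp7* (0.193), *Furin* to *Bmp6* (0.238), *Bambi* to *Bmp5* (0.253) and *Eng* to *Bmp4* (0.258). Own deviations were 0.218 for *Bmp2*, 0.371 for *Bmp4*, 0.418 for *Bmp5*, 0.338 for *Bmp6* and 0.404 for *Bmp7*. They were 0.234 for *Gdf10*, 0.26 for *Bmpr1b* and 0.229 for *Bmpr2*. Genes that vary little have small differences, so the order given does not rank matches relative to own deviation. With 6 libraries such matches are descriptions only.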

How the data were processed

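Per the file headers, the authors counted fragments of read pairs over exons per gene with featureCounts 1.4.4 on Ensembl release 75 models of GRCm38, without regard to strand, and deposited raw counts, 1 table per library. Reads were trimmed and aligned beforehand: cutadapt, STAR 2.5.2b and mm10 are listed in the submitters' processing notes. Symbols were matched by identifier for 37607 of 38924 genes. Library totals of 6760510 to 10834744 counts make 1 count worth 0.0867 to 0.162 CPM. RNA amplification without described molecular identifiers means that counting limits cover counting error only.

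In R 4.3.3, edgeR 4.0.16 (filterByExpr, 13333 genes, trimmed mean of M values) tested genotype by quasi-likelihood with Benjamini-Hochberg adjustment at 0.05, a procedure checked on simulated data. Standard errors are the log2 fold change divided by the square root of F, and 95% intervals use its degrees of freedom. CPM use scaled totals. Alternatives were other scalings and filters, DESeq2 1.42.0, limma-voom (limma 3.58.1), the replicate block, mitochondrial genes removed, thinned counts, a GC curve per library (mgcv 1.9.3, GENCODE M21 transcripts, 13192 tested genes with a value) and each library left out. The filter was rerun for each edgeR alternative, except that the filter alternatives used their own rule. DESeq2 and limma-voom used the 13333 genes of the main fit. Named pathway genes are the 2 with the smallest p and the most abundant of each list, and any called.

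The members and lists were chosen with earlier results of these data known. The series text describes separate mice, 1 sample each. Of 153 list genes 2 had no match.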

Additional observations from a re-analysis of the deposited data

How the results depend on the processing

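The count of BMP ligands and receptors called was 0 under all 17 alternatives. The count of other pathway genes was 0 in all but DESeq2, which called 1. The count of all genes called, 60, was 247 with no filter on low counts, 204 with DESeq2, 172 with the replicate block and 5 with the GC correction, and 0 to 229 with each library left out. The 0 came without WT replicate 3, where edgeR still gave 1376 genes at an unadjusted p below 0.05. Scaling by totals alone gave 17 higher and 24 lower genes, beside 53 and 7, and moved the median of all genes from 0.01 to -0.15 (log2). The causes were not tested. Same-numbered libraries deviated together with correlations of 0.207, 0.0246 and 0.0861, and not every library matched its own number best, so the replicate numbers were not taken as pairs; the replicate block moved no member past the threshold.

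Directions held for *Bmp4*, *Bmp5*, *Bmp6*, *Bmpr1b* and *Bmpr2* under all 17 alternatives. *Bmpr1a* kept its sign, but its log2 fold change was 0.01 (standard error 0.14) with the GC correction, which shows no direction. Under scaling by totals alone it was 0.05. The log2 fold change of *Bmp2*, -0.01, turned to 0.10 with the GC correction, 0.011 with limma-voom and 0.012 with the replicate block, and ran from -0.16 to 0.19 with libraries left out. With libraries left out *Bmp7* ran from -0.22 to 0.52 and *Gdf10* from -0.34 to 0.015. With libraries left out, *Bmp4* ran from 0.24 to 0.70, *Bmp6* from -0.80 to -0.55, *Bmpr1a* from 0.08 to 0.30 and *Bmpr2* from 0.26 to 0.46. The level of *Bmp5* without shared bases, given above, was an alternative chosen after seeing the data. Not dividing by length moved 14 of 20 mean shares (10 genes, each genotype apart) by more than 1 SD.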

Other observations

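*Gm26903*, the gene on the strand opposite *Bmp5*, had 36, 56 and 77 counts in Apert replicates 1 to 3 and 53, 54 and 48 counts in WT replicates 1 to 3. The gene models used for counting are shorter than those of GENCODE M21 for *Bmpr2* (3555 against 17983 exon bases), *Gdf10* (2507 against 5210) and *Bmp6* (2410 against 3900), so fragments in the remaining exon sequence of these 3 genes were not counted.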
